A study of Mus musculus with 3 samples.

Results

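The adult globin genes Hbb-bs, Hbb-bt, Hba-a1 and Hba-a2 and the erythroid haem synthesis gene Alas2 were followed through 3 mouse medulloblastomas. They were chosen by name, and 5 of 5 are among the 19744 genes of the deposited count tables. Each tumour came from a G-Smo mouse on the C57BL/6 background, genotype hGFAP-Cre/SmoM2, in which Cre under the human GFAP promoter turns on the constitutively active Hedgehog receptor SmoM2 in neural progenitors of the brain. Every mouse had received 5 daily intraperitoneal injections of the CDK4 and CDK6 inhibitor palbociclib at 25 mg/kg, given as POx-palbo from postnatal day 10, and tumours were taken on postnatal day 16. All 3 tumours are therefore 1 group, and values were compared between cell barcodes of the same tumours; untreated tumours are not analysed here. RNA was counted by Drop-seq, which captures single dissociated cells with barcoded beads in droplets and counts transcript 3′ ends by unique molecular identifiers (here called counts).

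Haemoglobin is a tetramer of alpha and beta chains. In the adult mouse the alpha chain comes from the neighbouring and nearly identical genes Hba-a1 and Hba-a2, and in C57BL/6 mice the beta chain comes from the linked genes Hbb-bs and Hbb-bt. Alas2 encodes the enzyme of red cell precursors that starts haem synthesis. Globin mRNA is made in those precursors and persists in reticulocytes, young red cells that have lost their nucleus. In brain tissue, red cells are those of the blood vessels.

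The promoters of the globin genes are shown because the 4 genes were called lower together in deep barcodes, in the comparison by depth. The sequences are the 120 bases before the annotated start in RefSeq's table for GRCm38.p6, and 5 of 5 genes were matched by symbol. Capitals mark the letters ATATAA, a form of the TATA box, the letters CCAAT, known as a motif of the factor NF-Y, the letters CACCC, known as a motif of the erythroid factor Klf1 and its relatives, and the letters GATAA, known as a motif of Gata1, each on either strand. In Hbb-bt an NF-Y motif on the reverse strand directly adjoins one on the forward strand, with no overlap.
Hba-a1, chr11:32283552-32283671, plus strand: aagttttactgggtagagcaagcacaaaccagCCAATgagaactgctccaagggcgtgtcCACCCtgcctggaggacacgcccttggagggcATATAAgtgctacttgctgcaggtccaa
Hbb-bs, chr7:103827929-103828048, minus strand: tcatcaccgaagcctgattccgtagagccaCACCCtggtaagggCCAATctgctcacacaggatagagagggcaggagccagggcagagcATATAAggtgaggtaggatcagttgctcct
Hbb-bt, chr7:103813924-103814043, minus strand: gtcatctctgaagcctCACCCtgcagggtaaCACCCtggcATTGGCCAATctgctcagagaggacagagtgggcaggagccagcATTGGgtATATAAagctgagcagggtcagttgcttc
Alas2, chrX:150547297-150547416, plus strand: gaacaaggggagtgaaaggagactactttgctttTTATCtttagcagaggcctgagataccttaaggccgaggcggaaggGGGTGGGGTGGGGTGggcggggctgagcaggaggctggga
The Hba-a2 window (chr11:32296372-32296491, plus strand) equals that of Hba-a1 over 117 bases at an offset of 3 bases. Each of the 4 globin windows holds the TATA, NF-Y and Klf1 motifs, which occur on either strand in 4.47%, 21.3% and 31.7% of 32851 RefSeq promoter windows of the same length. None of the 4 holds the Gata1 motif, found in 10.5% of windows, whereas the Alas2 window holds the Gata1 and Klf1 motifs, on the reverse strand. These matches describe letters only.

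The coding sequences bear on how far the paralogues can be told apart. Over 429 coding bases of the GENCODE M21 transcripts, Hba-a1 and Hba-a2 differ only at C381T, counted from the A of the start codon, with the Hba-a1 base named before the position. The stretch around this base, coding positions 367 to 395, is shown with the differing base in capitals.
Hba-a1: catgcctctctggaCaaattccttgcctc
Hba-a2: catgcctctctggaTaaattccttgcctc
From the start codon to the transcript end, 89.0% of the 50-base windows of Hba-a1 also occur in Hba-a2, and 86.0% of those of Hba-a2 occur in Hba-a1. Hbb-bs and Hbb-bt differ in their 444 coding bases only at C417T, but their 3′ ends diverge, and 69.8% of Hbb-bs windows and 69.6% of Hbb-bt windows are shared. These shares weigh the whole length from the start codon, while 3′ ends were counted, so they are not the uncertainty of single-gene values. The last coding difference lies 158 bases from the 3′ end of Hbb-bs and 122 from that of Hba-a1. Because the 3′ ends of the beta genes diverge, the split of Hba-a1 from Hba-a2 is the more uncertain. Sums over a pair do not depend on that split, but they would lose counts if reads matching both genes had been dropped, which was not tested and also bears on the ratio of alpha to beta.

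The tables held 8827, 2330 and 9802 barcodes in tumours 1, 2 and 3, with total counts of 1150463, 248617 and 1324350. The median barcode held 84, 85 and 105 counts. Mitochondrially encoded genes took 3.97%, 11.4% and 5.61% of counts and the nuclear RNA Malat1 took 3.24%, 6.78% and 3.65%, so tumour 2 stood apart on both. By markers, 986 barcodes were called progenitor and 672 granule neuron, the lineage of the tumour. Tumours 1 and 2 shared 3 barcode sequences, tumours 1 and 3 shared 8 and tumours 2 and 3 shared 3, and none of these held globin in both tumours.

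Globin mRNA was present in all 3 tumours at several counts per 10000, and its level differed between them. Together, the 4 globin genes had 368, 144 and 1210 counts, or 3.20, 5.79 and 9.14 counts per 10000 in tumours 1, 2 and 3 (mean 6.04 ± 2.98, SD, n = 3). The exact Poisson intervals at the 95% level, 2.88 to 3.54, 4.89 to 6.82 and 8.63 to 9.67, do not overlap. Like all intervals here they cover counting error only, and they take counts as independent. Over barcodes the variance of summed globin counts was 2.39, 4.76 and 5.68 times their mean in tumours 1, 2 and 3, so these intervals are too narrow. The 4 genes differed in their order and in how far they varied between tumours.

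Hbb-bs, the more abundant of the adult beta genes, had 205, 91 and 719 counts, or 1.78, 3.66 and 5.43 per 10000. It led in every tumour. Hba-a1 had 69, 25 and 302 counts, or 0.600, 1.01 and 2.28 per 10000. It was the next highest in every tumour, although its interval overlapped that of its paralogue Hba-a2 in tumours 1 and 2. Hba-a2 had 58, 15 and 80 counts, or 0.504, 0.603 and 0.604 per 10000, a mean of 0.571 ± 0.0575 (SD, n = 3). It alone kept within overlapping intervals in the 3 tumours. Hbb-bt, the minor beta gene, had 36, 13 and 109 counts, or 0.313, 0.523 and 0.823 per 10000. It lay below Hba-a2 in tumours 1 and 2 and above it in tumour 3, and their intervals overlapped in each. Between tumours 3 and 1, the ratio of levels was 3.80 for Hba-a1, 3.05 for Hbb-bs, 2.63 for Hbb-bt and 1.20 for Hba-a2. Among 5335 genes with at least 100 counts in all, these ratios stood at percentiles 99.93, 99.87, 99.79 and 79.23.

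Alas2 was near the limit of detection. It had 0, 1 and 3 counts in tumours 1, 2 and 3. A count of 0 in tumour 1 allows a level of up to 0.0261 per 10000 when taken as 3 counts of the total; the exact Poisson interval, as plotted, reaches 0.0321. Only 1 of the 4 barcodes with an Alas2 count, in tumour 3, also held globin, with 16 globin counts.

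**Figure D1:**
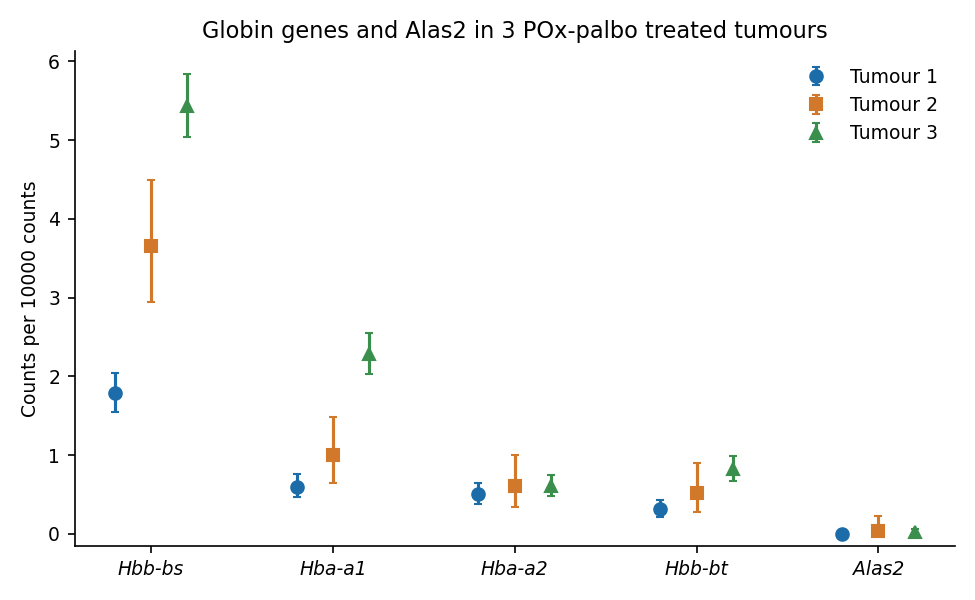
Level of each gene in counts per 10000 counts, with points for tumours 1, 2 and 3 and bars for exact Poisson intervals at the 95% level. Hbb-bs was highest in each tumour, Hba-a2 kept a mean of 0.571 per 10000 over the tumours, and Alas2 had 0, 1 and 3 counts.

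Globin counts were scattered thinly over many barcodes. At least 1 globin count was found in 318 barcodes of tumour 1 (3.60%), 101 of tumour 2 (4.33%) and 935 of tumour 3 (9.54%). Barcodes holding only 1 or 2 globin counts carried 92.1%, 81.9% and 85.0% of all globin counts in tumours 1, 2 and 3. Barcodes called by markers as tumour lineage held globin at shares whose exact binomial intervals, at the 95% level, include the share over all barcodes of the same tumour. Of barcodes called progenitor, 14 of 419, 1 of 38 and 50 of 529 had a globin count in tumours 1, 2 and 3 (3.34%, 2.63% and 9.45%), at medians of 344, 167.5 and 202 counts per barcode. Of barcodes called granule neuron, 9 of 275, 2 of 66 and 33 of 331 had one (3.27%, 3.03% and 9.97%), at medians of 309, 139.5 and 235 counts. Barcodes called microglia had it in 0 of 26, 0 of 8 and 3 of 19 cases, at medians of 210.5, 252.5 and 397 counts. Those called oligodendrocyte lineage had it in 1 of 19, 0 of 1 and 2 of 11 cases, and the 2 of tumour 3 held 7 globin counts. Globin was found in 0 of 28, 1 of 3 and 0 of 2 astrocyte barcodes. It was found in 0 of 6, 0 of 2 and 1 of 4 endothelial barcodes. Thinned to 50 counts, progenitor barcodes would hold globin in 0.673%, 1.10% and 2.64% of cases and granule neuron barcodes in 0.445%, 0.644% and 2.45%. None of the globin-rich barcodes described here was among those called.

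In shallow barcodes globin took a larger share of counts, while globin counts per barcode did not fall with depth in the same way. Depth was the number of counts outside the 4 globin genes. Over the bins of under 100, 100 to under 200, 200 to under 500 and at least 500 counts, tumour 1 had 5.68, 2.91, 1.30 and 0.720 globin counts per 10000. Tumour 2 had 6.51, 6.31, 3.23 and 2.19 per 10000, and tumour 3 had 14.3, 10.2, 3.37 and 2.64. The level was lower in each deeper bin of each tumour. The intervals of neighbouring bins overlap, however, throughout tumour 2 and in the deepest pair of bins of tumours 1 and 3. The deepest bin of tumour 2 rests on 2 globin counts in 9 barcodes. Per 1000 barcodes, the same bins held 42.5, 37.8, 40.1 and 54.7 globin counts in tumour 1. They held 49.8, 83.2, 86.3 and 222.2 in tumour 2 and 116.0, 132.0, 99.5 and 202.2 in tumour 3. On this scale the 4 intervals of tumour 1 overlap, while in tumour 3 the interval of the deepest bin (142.4 to 278.7) lay above those of the bins of under 100 and of 200 to under 500 counts. Without the globin-rich barcodes defined below, the bin of 100 to under 200 counts in tumour 2 held 47.2 per 1000 barcodes and 3.58 per 10000. The bin of under 100 counts then held 38.7 per 1000 barcodes in tumour 1 and 93.0 in tumour 3, and that of 100 to under 200 held 124.0 in tumour 3.

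**Figure D2:**
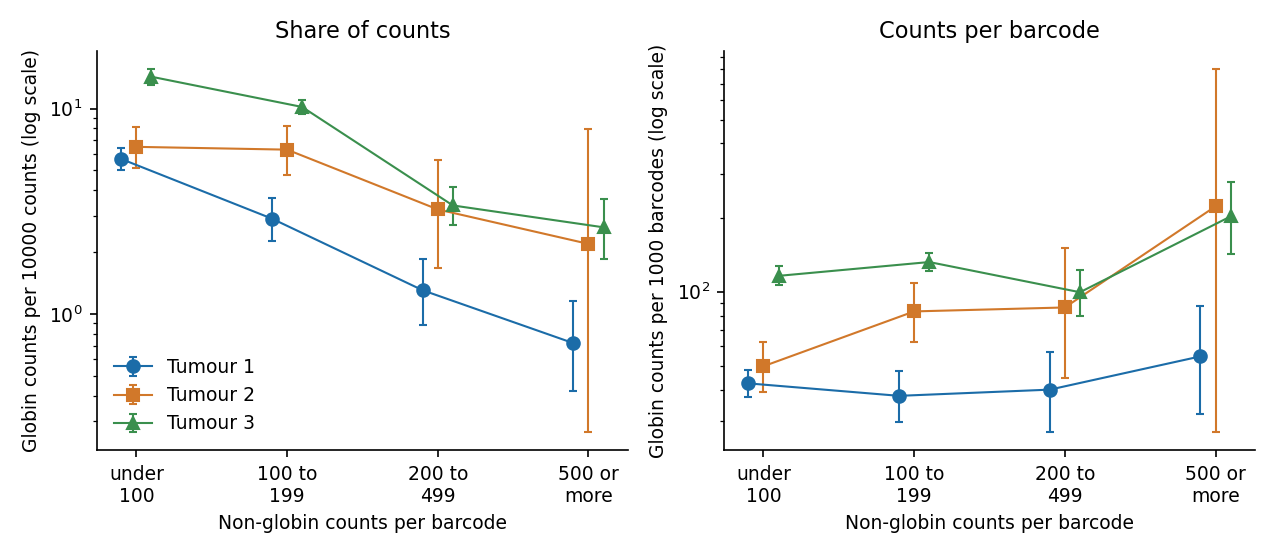
Summed counts of the 4 globin genes by non-globin counts per barcode, as counts per 10000 counts (left) and counts per 1000 barcodes (right), both on log axes, for tumours 1, 2 and 3, with exact Poisson intervals at the 95% level. The share was lower in deeper bins, with 0.720, 2.19 and 2.64 per 10000 in the deepest, while counts per barcode showed no such order.

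Deep barcodes, of at least 200 counts, were set against shallow barcodes, of under 100. The 4 globins together had 1.01, 3.02 and 3.11 counts per 10000 in deep barcodes of tumours 1, 2 and 3, against 5.68, 6.51 and 14.3 in shallow barcodes. The difference averaged -6.44 ± 4.14 per 10000 (SD, n = 3) and was negative in 3 of 3 tumours; an exact two-sided sign-flip test gave p = 0.25, the smallest that 3 tumours allow. Without tumour 3 the mean difference was -4.08. As a ratio, the level in deep barcodes was 0.178, 0.464 and 0.218 times that in shallow barcodes. Mean depth differed 5.88-, 4.09- and 4.64-fold between the same sets, and counts of globin per barcode differed 1.04-, 1.90- and 1.01-fold. Without the globin-rich barcodes defined below, which were chosen by their globin counts, counts of globin per barcode differed 1.145-, 1.898- and 1.261-fold. The difference in level then averaged -5.33 ± 2.63 per 10000 (SD, n = 3). With each barcode thinned to 50 counts, 0.598%, 1.61% and 1.63% of deep barcodes would hold globin, against 2.52%, 2.81% and 5.26% of shallow ones; before thinning the shares were 3.96%, 7.43% and 9.84% of deep and 3.58%, 4.01% and 8.27% of shallow barcodes.

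Each globin gene took part in this difference. Hbb-bs had 0.601, 1.73 and 1.71 counts per 10000 in deep barcodes, against 3.13, 4.40 and 8.61 in shallow barcodes. It was lower in the deep barcodes of each tumour. Hbb-bt had 0.0643, 0 and 0.201 per 10000 in deep barcodes, against 0.545, 0.761 and 1.41 in shallow barcodes. It too was lower in the deep barcodes of each tumour, and tumour 2 had no count of Hbb-bt in its 148 deep barcodes. Hba-a1 had 0.150, 0.864 and 0.980 per 10000 in deep barcodes, against 1.20, 0.930 and 3.50 in shallow barcodes. Deep barcodes were again lower in each tumour, and tumour 2 differed least. The share of all genes that were lower in each tumour is not given here. Hba-a2 had 0.193, 0.432 and 0.226 per 10000 in deep barcodes, against 0.795, 0.423 and 0.775 in shallow barcodes, and in tumour 2 the deep barcodes were slightly higher. Alas2 had no count in the deep barcodes of any tumour, against 0, 1 and 1 in the shallow ones.

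Counts summed per tumour and depth set were tested over all genes with edgeR's quasi-likelihood test, with the tumour as a block and Benjamini-Hochberg adjustment. Of 6479 genes tested, 683 were lower in deep barcodes at an adjusted p under 0.05, which is 10.5% of them, and 424 were higher (6.54%). The 4 globin genes were all among those lower, and Alas2 had too few counts to be tested. Hbb-bt fell by 2.96 on the log2 scale (SE 0.51, adjusted p = 1.387e-06), the steepest fall of the 6479 genes, although its estimate includes a deep sum of 0 counts. Hbb-bs fell by 2.22 (SE 0.28, adjusted p = 4.706e-12) and ranked 7 by size of fall. Hba-a1 fell by 2.01 (SE 0.34, adjusted p = 8.63e-07) and ranked 16. Hba-a2 fell by 1.73 (SE 0.46, adjusted p = 0.003431) and ranked 30. The median log2 change was -2.12 over the 4 genes and -0.02 over all genes tested.

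The calls depend on which tumours enter, and so do those over all genes. Without tumour 1, 58 of 5018 genes tested were called in either direction, and without tumour 3, 44 of 5865. Without tumour 1, the adjusted p was 0.0565 for Hba-a1 and 0.377 for Hba-a2, and without tumour 3 it was 0.128 for Hba-a1, 0.328 for Hba-a2 and 0.0679 for Hbb-bt. Without the tumour block it was 0.0873 for Hba-a1 and 0.0696 for Hba-a2, and DESeq2 gave no adjusted p for Hba-a2 and Hbb-bt. With deep barcodes of at least 500 counts, Hba-a2 had an adjusted p of 0.0742. Hbb-bs passed under every setting run, and the 4 genes were lower in deep barcodes under all of them. Without tumour 2, which stood apart in its mitochondrial and Malat1 shares, all 4 passed, with changes from -1.92 for Hba-a2 to -2.89 for Hbb-bt.

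Other measures moved between the same sets of barcodes. Cytosolic ribosomal protein genes were lower in deep barcodes for 69 of 86 tested, higher for 0, with a median log2 change of -1.27. Mitochondrially encoded genes were higher for 8 of 10 tested and lower for 0, with a median of 1.66, and they took 5.64%, 11.1% and 6.29% of counts in deep barcodes, against 2.26%, 11.5% and 4.83% in shallow barcodes of tumours 1, 2 and 3. Malat1 took 4.96%, 8.03% and 5.00% in deep barcodes, against 1.71%, 5.65% and 2.85% in shallow ones. Of 7 microglial markers tested, 3 were higher in deep barcodes, among them the lysosomal protease gene Ctss and the complement gene C1qc, and 0 were lower, with a median of 0.95 over the 7. The endothelial junction gene Cldn5, the only endothelial marker tested, was higher by 1.80 (SE 0.47, adjusted p = 0.002767, edgeR). Without tumours 1, 2 and 3 in turn, 15 of 74, 76 of 92 and 12 of 79 ribosomal protein genes were lower. In the same fits 6 of 11, 8 of 9 and 2 of 10 mitochondrial genes were higher, as were 2 of 6, 1 of 7 and 0 of 8 microglial markers. Of all genes tested, 58 of 5018, 1703 of 7167 and 44 of 5865 were called in either direction. Ctss and C1qc had log2 changes of 1.21 and 1.01, but 0.22 and 0.05 with deep barcodes of 200 to under 500 counts (edgeR adjusted p = 0.718 and 0.952). Cldn5 had changes of 2.55 without tumour 1 and 1.80 without tumour 3 (edgeR adjusted p = 0.0656 and 0.189). The part of these measures in the globin difference was not tested.

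Genes that act with globin in red cells did not share a direction. The list of red cell maturation and antioxidant genes had 9 of 13 tested, of which 3 were lower in deep barcodes, 0 higher and 6 did not pass, with a median log2 change of -0.62. The peroxidase gene Prdx2, abundant in red cells but also made by neurons, fell by 0.87 (SE 0.25, edgeR adjusted p = 0.007512). Bnip3l, needed for clearing mitochondria from reticulocytes, fell by 1.15 (SE 0.29, adjusted p = 0.001868), and the glutathione peroxidase gene Gpx1 fell by 1.03 (SE 0.31, adjusted p = 0.01001). The ubiquitin gene Ubb had a change of -0.62, Cat (catalase) -0.57, Mkrn1 0.04, Xpo7 -0.03 and Ube2o 0.76, none past the threshold. None of the list passed without tumour 1 or without tumour 3, when only 58 of 5018 and 44 of 5865 of all genes were called. Prdx2 then had changes of -0.70 and -0.98 (edgeR adjusted p = 0.271 and 0.240). Bnip3l had -1.24 and -1.10 (adjusted p = 0.167 and 0.280) and Gpx1 -0.76 and -0.54 (0.540 and 0.706).

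Haem synthesis had 4 of 12 genes tested, of which 1 rose and 0 fell, with a median of -0.23 (0.80 over the 2 genes tested without tumour 1, and 0.07 over the 3 tested without tumour 3). Alas1, the counterpart of Alas2 outside red cell precursors, rose by 1.14 in deep barcodes (SE 0.40, adjusted p = 0.03259, edgeR). Urod and Fech, which encode later enzymes of the pathway, had changes of -0.35 and -1.02 that did not pass. Iron handling had 6 of 10 tested, 1 higher and 1 lower, with a median of 0.26. The transferrin receptor gene Tfrc rose by 1.79 (SE 0.51, adjusted p = 0.006631) and the ferritin light chain gene Ftl1 fell by 0.83 (SE 0.25, adjusted p = 0.01102). Fth1, the ferritin heavy chain gene, had a change of -0.57, Trf (transferrin) 1.22, and the iron regulatory proteins Aco1 and Ireb2 0.34 and 0.19, none past the threshold. Of the erythroid list only Bpgm, the red cell enzyme of 2,3-bisphosphoglycerate, was tested, with a change of -1.34 (SE 0.56, adjusted p = 0.07639). The 3 calls among haem and iron genes were also lost without tumour 1 and without tumour 3, when few of all genes were called. Alas1 then had changes of 1.58 and 0.97 (edgeR adjusted p = 0.208 and 0.4996). Tfrc had 1.44 and 1.87 (adjusted p = 0.376 and 0.273) and Ftl1 -0.47 and -0.84 (0.387 and 0.419). Set against barcodes of 100 to under 200 counts, Alas1 had a change of 0.23 and Tfrc 0.43, and with deep barcodes of at least 500 counts Ftl1 had -0.42, none past the threshold.

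The dependence on depth was also measured without bins, as the slope of the log mean count per barcode on log depth by Poisson regression. A slope of 0 means the same count in every barcode whatever its depth, and a slope of 1 the same share of counts at every depth. For the summed globins it was -0.05, 0.41 and 0.12 in tumours 1, 2 and 3 (mean 0.160 ± 0.230, SD, n = 3). Of 4817 genes with at least 10 counts in each tumour, 25 had a lower mean slope, and the median gene had 0.97, with 5% of genes under 0.51. The globin genes ranged from -0.28 for Hbb-bt and 0.10 for Hbb-bs to 0.26 for Hba-a1 and 0.43 for Hba-a2. Alpha globin had slopes of -0.05, 0.81 and 0.29 in tumours 1, 2 and 3 (mean 0.35 ± 0.43, SD, n = 3). Beta globin had -0.05, 0.20 and 0.03 (mean 0.06 ± 0.13, SD, n = 3). Within tumours, alpha was higher in tumours 2 and 3 and about equal in tumour 1, and this difference was not tested. Depth here leaves out the globins but not any other gene. With depth by all counts the summed globins had a slope of 0.319, with 58 genes lower. Without globin-rich barcodes their mean slope was 0.243 ± 0.185 (SD, n = 3).

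Few other genes came near this. Among 1927 genes with at least 300 counts, listed after their values were seen, the nucleotide enzyme gene Dut (0.04), Gm8292 (0.07) and the Mediator subunit gene Med19 (0.11) had the lowest mean slopes outside the globins. In Dut and Med19 these rest on tumour 2, where their slopes were -1.03 and -0.62, against 0.62 and 0.47 in tumour 1 and 0.51 and 0.47 in tumour 3. Cytosolic ribosomal protein genes had a median of 0.556 over 71 genes, and the lowest was Rpl29 at 0.176, which also rests on tumour 2 (-0.63, against 0.56 in tumour 1 and 0.59 in tumour 3). Microglial markers had a median of 1.51 over 7 genes and mitochondrially encoded genes 1.42 over 10.

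**Figure D3:**
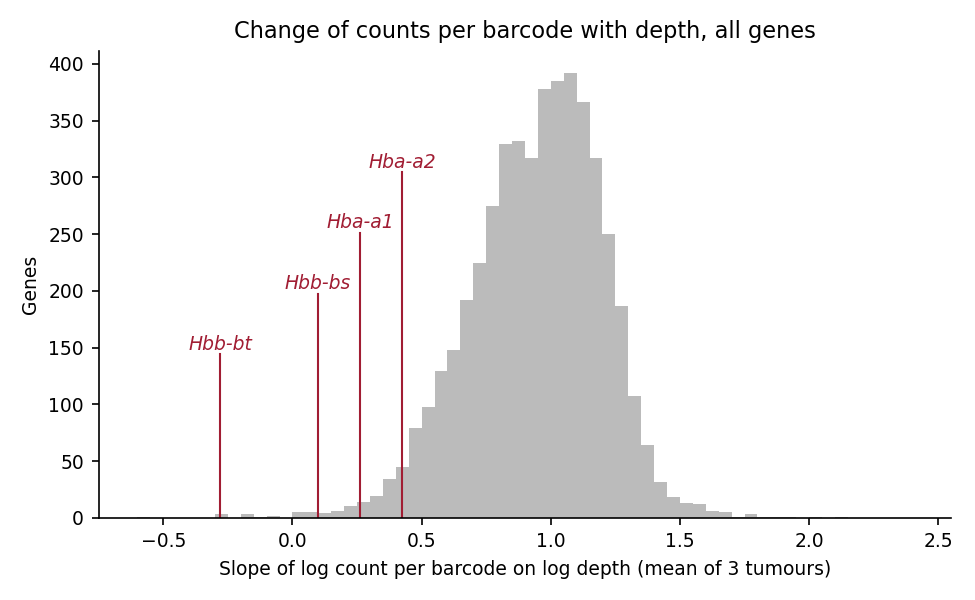
Distribution over 4817 genes of the slope of log count per barcode on log non-globin depth, averaged over 3 tumours (x axis, no unit; y axis, number of genes), with lines at the 4 globin genes whose heights carry no value. The globin genes lie between -0.28 and 0.43, below the median of 0.97.

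A few barcodes held many globin counts. Barcodes with at least 5 globin counts making up at least 10% of their counts were taken as globin-rich, so their globin content is a description. There were 1, 1 and 4 of them in tumours 1, 2 and 3, or 0.0113%, 0.0429% and 0.0408% of barcodes, and they carried 5.98%, 15.97% and 11.2% of the globin counts. The barcode of tumour 1 had 22 globin counts beside 64 others, and that of tumour 2 had 23 beside 107. The 4 of tumour 3 had 55, 44, 20 and 16 globin counts beside 50, 94, 122 and 106 others. Each held both chains, with alpha counts of 7 in tumour 1, 8 in tumour 2 and 13, 12, 12 and 9 in tumour 3. Just outside the criterion were a barcode of tumour 3 with 5 globin counts among 3410 others and barcodes with 4 counts, 1 in tumour 1 and 2 in tumour 3. No globin-rich barcode had a neighbour differing by a single base.

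**Figure D4:**
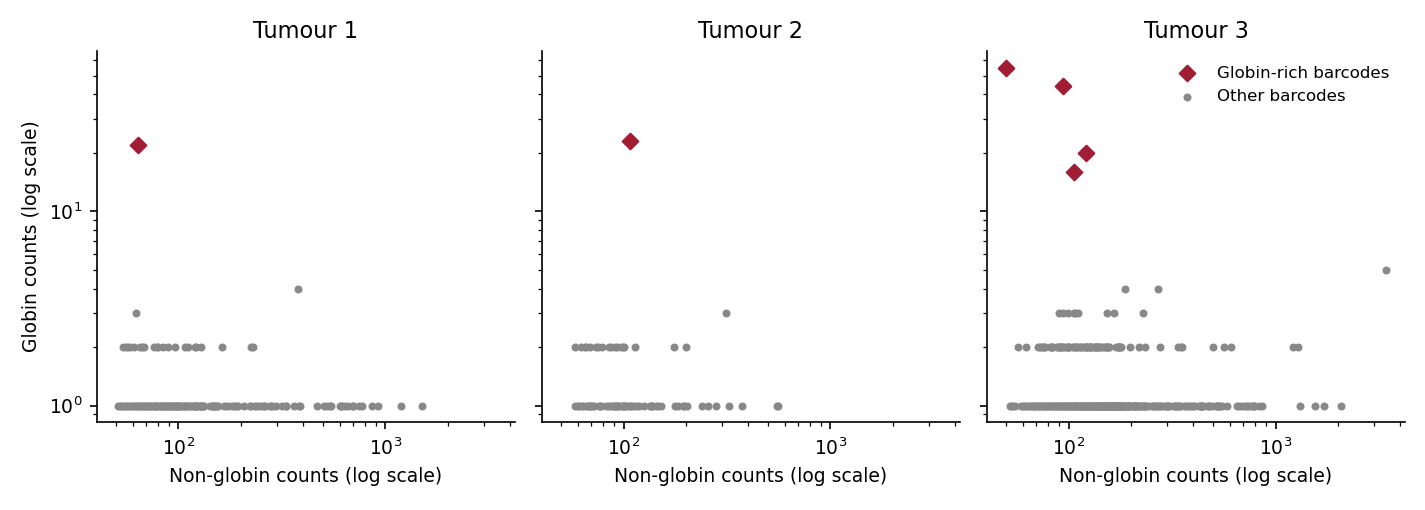
Globin counts against non-globin counts of each barcode with at least 1 globin count (both log axes), for tumours 1, 2 and 3. Diamonds mark the 1, 1 and 4 globin-rich barcodes, which hold 16 to 55 globin counts, while almost all other barcodes hold 1 or 2.

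Erythroid markers other than globin were scarce in the globin-rich barcodes. One count of Ank1, a red cell membrane skeleton gene, and one of Fam46c were found in that of tumour 2, and one of Alas2 in a barcode of tumour 3. Of the 28 genes of the erythroid list 17 were measured, with summed levels of 0.878, 1.29 and 0.951 per 10000 in tumours 1, 2 and 3. Bpgm and Tmod1 were among the genes with most of these counts. The genes Slc4a1 (band 3), Klf1, Epor and Rhag had 1 count each in all 3 tumours together. Other listed genes had more: in tumours 1, 2 and 3, Ank1 had 7, 2 and 6 counts, Gypc 5, 1 and 10 and Sptb 6, 2 and 3. Fam46c had 4, 3 and 10 counts and Tmod1 12, 4 and 11. Gata1, Ahsp, Hemgn and Epb42 were among the listed genes that were not measured. No barcode met the marker call for erythroid cells, which needed 3 counts of 2 genes. Mitochondrially encoded genes took 9.38%, 25.2% and 3.23% of non-globin counts in globin-rich barcodes, against 3.97%, 11.4% and 5.62% in the other barcodes, from only 64, 107 and 372 counts.

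Other genes could not be tied to globin-rich barcodes at this depth. Because only tumour 3 had 3 globin-rich barcodes, barcodes with at least 3 globin counts were used for the test over all genes, 3 in tumour 1 and 18 in tumour 3, with globins left out. Of 7448 genes, edgeR's quasi-likelihood test called 0 in either direction (0.0%), with 2 at an unadjusted p under 0.05, and DESeq2 gave 0 calls and 63 genes at an unadjusted p under 0.05. In simulated data for this comparison, 0.0% of genes changed by 3 on the log2 scale were recovered, so a count of 0 here says nothing about such genes.

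Variation over barcodes exceeded what a common share of each barcode's counts gives. The ratio of observed to binomial variance of summed globin counts was 3.56, 4.25 and 6.56 in tumours 1, 2 and 3, against medians of 1.29, 1.31 and 1.24 for genes of similar total. Without globin-rich barcodes it was 1.67, 1.49 and 1.40, a fall that their choice by globin counts fixes, and no extreme barcodes were removed for the other genes. The genes differed: with all barcodes Hbb-bs had 2.83, 2.43 and 4.97 and Hba-a1 had 2.25, 1.23 and 2.03. The binomial variance takes globin as proportional to depth, a slope of 1, whereas the mean slope of the summed globins was 0.160. Set against the mean count per barcode instead, the variance of summed globin counts was 2.39, 4.76 and 5.68 times as large with all barcodes. Without globin-rich barcodes it was 1.15, 1.31 and 1.20 times as large.

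In barcodes with exactly 2 globin counts, both counts usually came from the same gene. This was so in 23 of 24, 15 of 19 and 81 of 112 such barcodes of tumours 1, 2 and 3 (95.8%, 78.9% and 72.3%). The genes' shares of the globin counts outside globin-rich barcodes would give 37.8%, 48.2% and 43.2%. An alpha with a beta count was found in 0, 4 and 22 of them (0.0%, 21.1% and 19.6%), where the shares would give 45.3%, 38.9% and 43.0%. Repeated counts of Hbb-bs were about as frequent as those of other genes in tumours 1 and 3 and more frequent in tumour 2. Of barcodes with Hbb-bs, 10.3%, 20.6% and 13.6% held it at least 2 times, against medians of 11.5%, 13.6% and 13.5% for genes found in a similar number of barcodes. For Hba-a1 the shares were 4.84%, 9.09% and 7.34%, below the medians of 9.68%, 12.9% and 11.8%.

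Beta globin outnumbered alpha globin in every tumour. Alpha made up 34.5% of globin counts in tumour 1, 27.8% in tumour 2 and 31.6% in tumour 3 (mean 31.3% ± 3.38, SD, n = 3), with exact binomial intervals at the 95% level of 29.7% to 39.6%, 20.6% to 35.8% and 29.0% to 34.3% that overlap. The ratio of alpha to beta counts was 0.527, 0.385 and 0.461. Per coding base the alpha share was 35.3%, 28.5% and 32.3%, a small shift that coding lengths of 429 and 444 bases fix in advance. Because transcript 3′ ends were counted, it is no correction for length. The share of tumour 2 lay below the intervals of tumours 1 and 3, and a difference between tumours was not tested. The globin level differed 2.86-fold between tumours 3 and 1. In barcodes of under 100 counts, alpha made up 35.2%, 20.8% and 29.9% of globin counts in tumours 1, 2 and 3. In barcodes of at least 200 counts it made up 34.04%, 42.9% and 38.7%. Over the depth bins the share rose at each step in tumours 2 and 3 but not in tumour 1. The last step in tumour 2 rests on 2 globin counts in its deepest bin. The intervals of shallow and deep barcodes overlap in each tumour, and this difference was not tested.

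Globin-rich and other barcodes had overlapping alpha shares. Alpha made up 31.8%, 34.8% and 34.1% of globin counts in globin-rich barcodes of tumours 1, 2 and 3, against 34.7%, 26.4% and 31.3% in the other barcodes. The difference averaged 2.76 ± 5.60 percentage points (SD, n = 3), positive in 2 of 3 tumours, with p = 0.75 by an exact two-sided sign-flip test. Without tumour 2 the mean difference was -0.0228.

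Within the chains, the split between paralogues was steady for beta and not for alpha. Hbb-bt made up 14.9%, 12.5% and 13.2% of beta counts in tumours 1, 2 and 3 (mean 13.5% ± 1.26, SD, n = 3). Hba-a2 made up 45.7%, 37.5% and 20.9% of alpha counts, and the exact intervals of tumours 1 (36.8% to 54.7%) and 3 (17.0% to 25.4%) do not overlap. In globin-rich barcodes the Hba-a2 share was 14.3%, 62.5% and 32.6%, from 7, 8 and 46 alpha counts. In the other barcodes it was 47.5%, 31.3% and 19.4%. The near identity of the 2 coding sequences limits what this split means, and how reads matching both genes were assigned is not given in the sources used here.

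**Figure D5:**
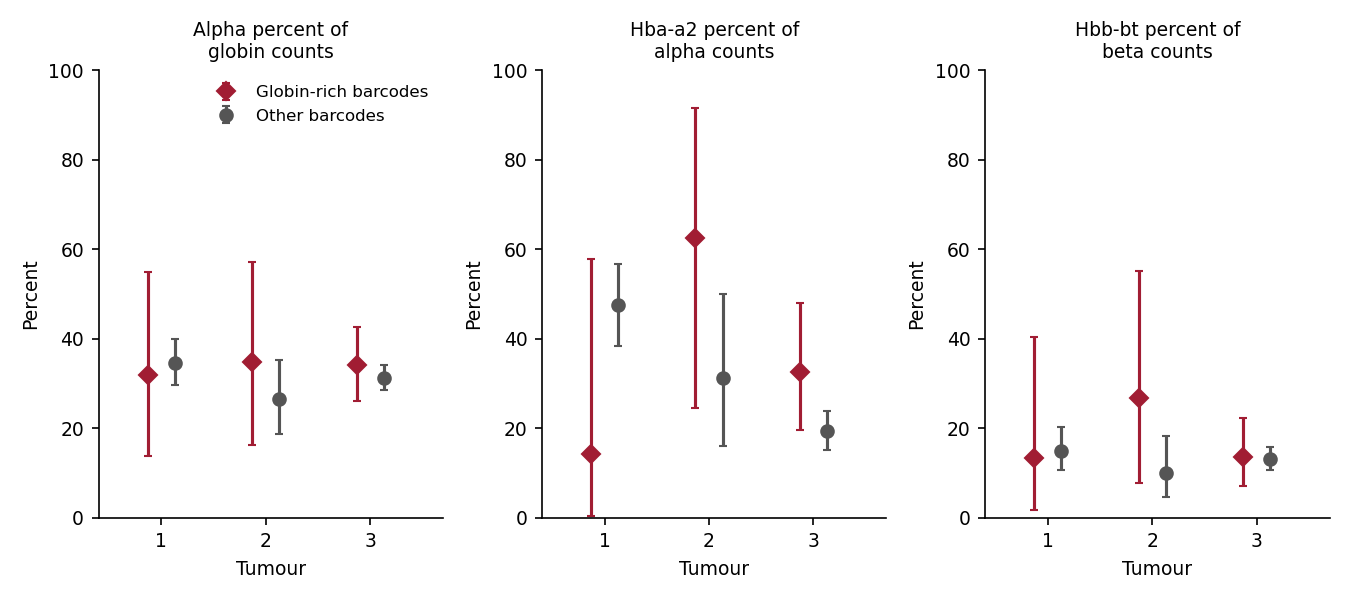
Alpha share of globin counts (left), Hba-a2 share of alpha counts (middle) and Hbb-bt share of beta counts (right), in percent, for globin-rich barcodes (diamonds) and other barcodes (circles) of each tumour, with exact binomial intervals at the 95% level. Alpha shares overlap throughout, and the Hba-a2 share in other barcodes runs from 47.5% in tumour 1 to 19.4% in tumour 3.

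The wider globin family was scarcely measured. Cygb (cytoglobin), found in fibroblast-like cells and neurons, had 29, 3 and 22 counts in tumours 1, 2 and 3, and Ngb (neuroglobin) had 0, 0 and 1. The alpha pseudogene Hba-ps4 had 0, 0 and 2 counts.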

How the data were processed

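Cells of 3 tumours were released with papain and their mRNA counted by Drop-seq, per the labels' protocols. The authors deposited raw UMI counts per gene and barcode; no normalisation is recorded. STAR, Cell Ranger and the build GRCh38 are named in the submitters' processing notes, with no version or role; since 18566 of 19744 symbols matched mouse names, no coordinates of the files were used. Every barcode holds at least 50 genes, so shallower ones were removed before deposit. Whether UMI errors were collapsed is not given in the sources used here. No doublet caller was run, since barcodes were summed and not typed by clustering.

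The members and gene lists were chosen with earlier results of these data known. Counts were summed per tumour and barcode set, filtered with filterByExpr, scaled by TMM and tested with edgeR 4.0.16 in R 4.3.3, with DESeq2 1.42.0 as an alternative (scipy 1.17.1, numpy 2.4.6, pandas 2.3.3 and Biopython 1.88 in Python 3.11.15, figures with matplotlib 3.10.9). The tumour was a block because both sums come from 1 tumour. Sums of the same tumour deviated together, with correlations of 0.213, 0.186 and 0.218 over genes. A first criterion for globin-rich barcodes left only 1 tumour with 3 of them, so the test used the criterion of 3 counts planned for that case. In simulated data for the depth comparison, 97.1% of 35 genes lowered by 3 and 48.6% of 37 lowered by 1.5 on the log2 scale were recovered, over 6552 genes. These shares leave out lowered genes that failed the filter, so recovery of all lowered genes was less. The simulated data had the same dispersion for all genes and no difference between tumours. Named genes were the members and, for each list, up to 8 tested genes in order of total counts; values of some listed genes are not reported here. Alternatives covered scaling, tool, filter, block, depth limits, globin-rich criterion and each tumour left out. The design text speaks of replicate mice, and n counts tumours.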

Additional observations from a re-analysis of the deposited data

How the results depend on the processing

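Of 6479 genes, 1107 were called between deep and shallow barcodes. DESeq2 called 269, deep barcodes of at least 500 counts gave 260, shallow barcodes of 100 to under 200 counts gave 419, and leaving out each tumour gave 44 to 1703, lowest without tumour 3 and 58 without tumour 1. No replicate block gave 90. The 4 globin genes were lower in deep barcodes in 46 of 46 values under alternatives and past the threshold in 38. Leaving out the globin-rich barcodes, taking deep barcodes of 200 to under 500 counts, and both further slopes were chosen after seeing the data. Between globin-rich and other barcodes, scaling by library totals gave 2 calls and the 10 nearest barcodes 3 of only 28 genes tested, against 0 of 7448. Tumour 2 was not in that test, so leaving it out changes nothing. With 10 globin counts required, or without tumour 1 or 3, fewer than 2 tumours had enough barcodes and the test could not be fitted.

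The alpha share in barcodes of at least 200 counts was 42.9% in tumour 2 and 38.7% in tumour 3, from 14 and 124 globin counts. The alpha difference of globin-rich from other barcodes ranged from -0.0228 to 5.58 percentage points with a tumour left out. With 3 globin counts required, tumour 3 had 18 globin-rich barcodes. The variance ratio was 1.67, 1.49 and 1.40 without globin-rich barcodes and 1.62, 1.88 and 3.51 thinned to 50 counts. Genes that missed the threshold changed sign in 10 cases: Mkrn1 had -0.15 with deep barcodes of at least 500 counts and -0.036 with no filter, Xpo7 had 0.15 and, with library totals, 0.00432, and Ireb2 had -0.00456 with 200 to under 500 counts. With each tumour left out, Mkrn1 ranged from -0.14 to 0.48, Xpo7 from -0.086 to 0.19, Aco1 from -0.055 to 0.53 and Urod from -0.57 to 0.027. The causes were not tested. Low depth limits the values of Alas2, the globin-rich barcodes and the deep bins of tumour 2.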
